A study of Saccharomyces cerevisiae with 7 samples.

Results

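Wild-type yeast from saturated liquid culture was compared with wild-type yeast in logarithmic growth, using the libraries whose titles give these conditions: 2 saturated and 2 log-phase libraries of the 7 in the series. All 4 came from Saccharomyces cerevisiae BY4741, a haploid strain (mating type a) deleted at HIS3, LEU2, MET15 (MET17 in the reference table) and URA3. Every culture was grown in synthetic complete (SC) medium at 30 °C from an inoculum at OD600 0.2. The log-phase cells were collected at OD600 0.5 and the saturated cells after saturation, at a time and density that the labels do not give. Total RNA was depleted of ribosomal RNA, fragments of 27 to 40 nt were sequenced as single reads, and the deposited tables give reads and TPM (a level per transcript length, scaled to the same sum in each library) for 6665 genes and 300 introns. The labels number the replicates but do not call them separate cultures. The p-values therefore reflect the spread among these libraries alone, and that spread may be technical.

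A yeast culture in glucose medium ferments while it grows, and as nutrients run out its cells leave the division cycle, turn down ribosome and membrane production, and take on storage sugars, thicker walls and a capacity to respire and recycle their own contents. Many yeast metabolic steps have paired enzymes, one favoured in growing cells and the other in resting or stressed cells. Introns are normally cut out as a lariat, opened by a debranching enzyme and degraded. In saturated yeast some are known to persist instead as linear RNAs, which is the subject of the series.

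Gene reads totalled 6714865 and 1875036 for log phase and 4665149 and 1019287 for saturated culture, so the second library of each pair was the shallower. Log2(CPM + 1) correlated at 0.980 across genes between the log-phase libraries, 0.946 between the saturated ones, and 0.670 to 0.704 between the conditions, where genes are not independent replicates. Of the strain markers, LEU2 had 0 reads in every library, URA3 had 3 or fewer, MET17 had 0 and 1 in log phase and 12 and 3 in saturated culture, and HIS3, of which this strain is known to lack only a part, kept reads throughout (492 and 126, then 2012 and 248). The genes MATALPHA1 and MATALPHA2 were at 0 in all 4 libraries, as were HMLALPHA1 and HMLALPHA2, whereas STE2, the alpha-factor receptor of a cells, stood at 278 and 464 TPM in log phase. Other genes of the alpha list did have reads. SAG1 had 183 and 59 in log phase and 181 and 38 in saturated culture, and STE3 had 35 and 23, then 38 and 14. MF(ALPHA)1 had 0 in log phase and 7 and 1 in saturated culture, called higher by edgeR (adjusted p = 0.0231) but not by DESeq2 (adjusted p = 0.0815).

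The difference between the conditions reached 53.0% of the genes tested. Of 5827 genes tested, 1626 (27.9%) rose and 1460 (25.1%) fell in saturated culture (edgeR quasi-likelihood test with Benjamini-Hochberg adjustment at 0.05). The rises were the larger. A log2 change of at least 4 was reached by 193 genes that rose and 32 that fell, and one of at least 6 by 54 that rose and 2 that fell, the ribosomal protein gene RPL9A and YIL141W, which had 28 and 8 reads in log phase and 0 in both saturated libraries. YIL141W did not pass with saturated replicate 1 left out (edgeR adjusted p = 0.0502). The groups did not overlap in CPM for 1592 of the genes called higher and for all 1460 called lower. With 2 libraries a side a call nearly requires this, so it adds no support, and it was not counted over all genes. Scaled by plain library totals, the counts were 1225 higher and 1833 lower, and the median log2 change of all genes was −0.21 in place of 0.10. Leaving out log-phase replicate 1 gave 998 higher and 992 lower. Levels here are shares of a library's RNA, so fewer cells of a type and less RNA per cell cannot be told apart.

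The saturated libraries were also more concentrated. The 10 most abundant genes held 10.8 and 12.8% of TPM in log phase and 23.9 and 26.6% in saturated culture. SNR17A, the U3 small nucleolar RNA, led both conditions, at 17813 and 22629 TPM in log phase and 95819 and 67235 in saturated culture, a change of 2.35 ± 0.50 that did not pass once log-phase replicate 1 was left out (edgeR adjusted p = 0.0856). Behind it in log phase came PDC1, TDH3 and FBA1, enzymes of fermentation and glycolysis, and CCW12, a cell wall mannoprotein. In saturated culture the places after PDC1 went to HSP26, a small heat-shock protein, PDC5, a second pyruvate decarboxylase, and HOR7, a small protein induced by osmotic stress. HOR7 was at 709 and 2576 TPM in log phase and 15290 and 18671 in saturated culture, a log2 rise of 3.71 ± 0.59 (SE). CCW12 fell by 2.17 ± 0.37 on the log2 scale. PDC1 itself, at 14964 and 16097 TPM in log phase and 21368 and 49471 in saturated culture, lay at the threshold. It did not pass in the TMM-scaled fit of 7 libraries (edgeR adjusted p = 0.0527) but was called higher in 6 alternatives. Among them were the fit with the replicate number as a block (1.42, edgeR adjusted p = 0.0469) and DESeq2 (1.49, adjusted p = 7.88e-04). The fit without saturated replicate 1, the lower of the saturated values, was also among the 6, at 1.81. That fit keeps 1 saturated library and borrows its error from other groups and genes, so its call adds no support.

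**Figure D1:**
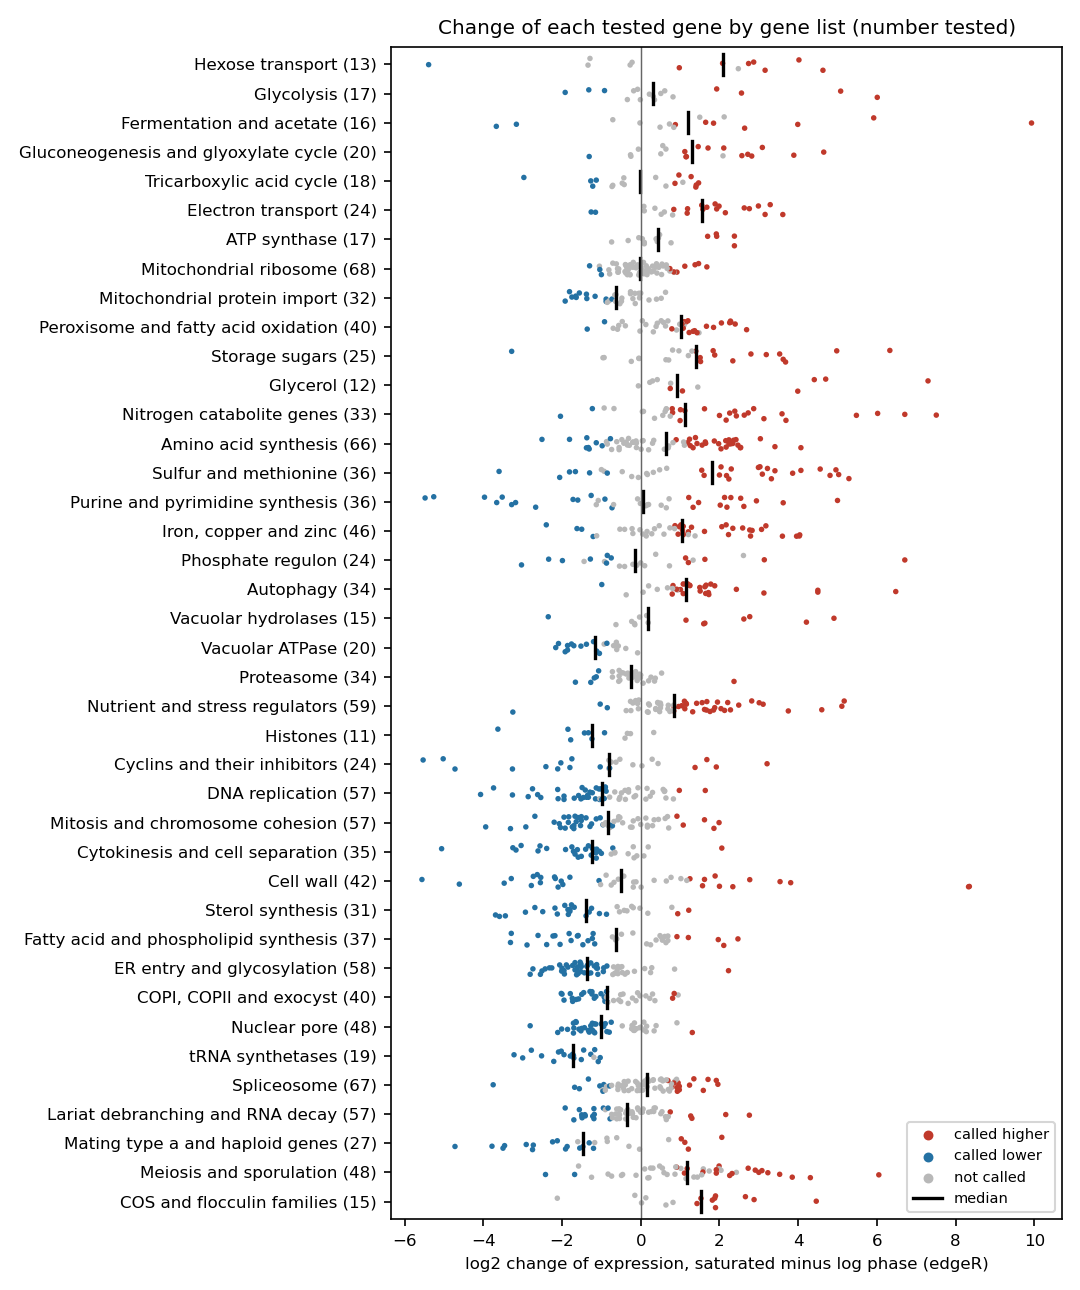
Log2 change of every tested gene in 40 of the lists, saturated minus log phase, from the edgeR fit. Each point is a gene, red where called higher, blue where called lower and grey where not called, the black bar is the list's median and the number tested is in parentheses. Autophagy, nitrogen and sulfur genes lie mostly to the right, and tRNA synthetases, secretion and cell division genes mostly to the left.

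Beyond the stress, thiamine and ribosome genes, the 12 largest rises included several genes of the cell surface and of nutrient use. PIR3 and SPI1 encode wall proteins, PUT1 the proline oxidase of mitochondria, DAK2 a dihydroxyacetone kinase and SPS100 a spore wall protein. PIR3 stood at 7.26 and 11.5 TPM in log phase and 1505 and 3235 in saturated culture, and SPI1 at 20.7 and 55.1 against 8703 and 9728. PUT1 was at 4.55 and 3.23 TPM in log phase and 535 and 653 in saturated culture. The log2 rises were 8.35 ± 0.58, 8.33 ± 0.61 and 7.51 ± 0.40. No overlap of the conditions in CPM was required of all 12 rises and 12 falls, so their separation adds no support. NRS1, which promotes entry into the cell cycle in poor nitrogen, had 5 and 0 reads in log phase and 1586 and 415 in saturated culture. EGO4 went from 14.1 and 32.8 TPM to 9983 and 3896. The others were HHY1, RRT1, ISF1, SET6 and ERR3, each with no more than 2 reads in any log-phase library, so that their fitted rises of 6.88 to 8.02 rest on very low baselines.

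The 12 largest falls gathered genes of division, wall remodelling and nucleotide supply. CLB2, the main mitotic cyclin, was at 72.8 and 73.7 TPM in log phase and 1.21 and 1.30 in saturated culture, a log2 fall of −5.53 ± 0.37 (edgeR adjusted p = 3.83e-05). UTR2, a wall enzyme that joins chitin to glucan, went from 416 and 382 TPM to 4.93 and 10.3. URA7, the major CTP synthase, went from 245 and 213 TPM to 4.55 and 4.98. CHS2, the chitin synthase of the primary septum, went from 64.4 and 63.5 TPM to 1.44 and 1.66. In CLB2, URA7 and CHS2 the replicates of a condition lay close together, while the saturated values of UTR2 differed more. HXT2, a high-affinity hexose transporter, and ASC1, a protein of the small ribosomal subunit and host of an intron, also fell, by −5.39 ± 0.40 and −5.00 ± 0.38. The remaining falls were INA1, IMD2, CLB6, MKC7, FAR1 and CWP1, at −4.61 to −5.98.

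**Figure D2:**
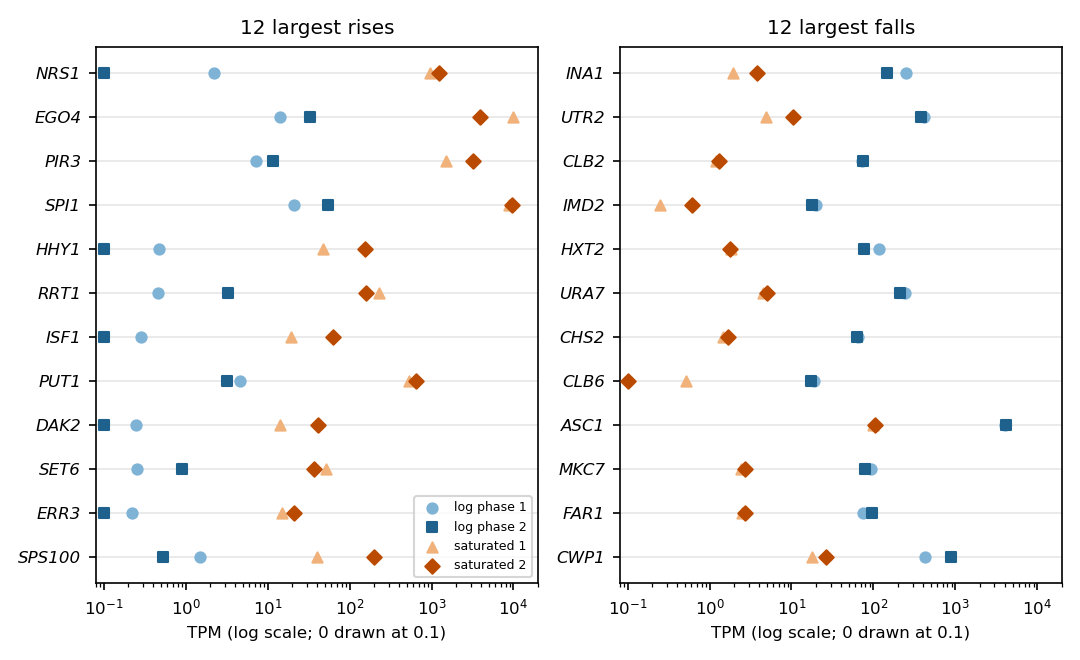
TPM of the 12 largest rises (left) and 12 largest falls (right) in each library, on a log axis where a value of 0 is drawn at 0.1. Each symbol is a library. The saturated symbols stand apart from the log-phase ones in all 24 genes, which the selection of these genes required in CPM.

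Sugar entry and the handling of pyruvate and acetate changed gene by gene rather than as a block. Of 13 hexose transporter and sensor genes tested (of 19 in the tables), 7 rose (53.8%, beside 27.9% of all genes) and 1, HXT2, fell. HXT3, a low-affinity transporter, stood at 288 and 256 TPM in log phase and 4211 and 6638 in saturated culture, a rise of 4.63 ± 0.45. HXT1, another low-affinity transporter, went from 195 and 248 TPM to 1187 and 1159. HXT5, a transporter of resting cells, was lower in level and went from 5.05 and 14.1 TPM to 55.3 and 185. All 4 values of HXT2 ran the other way, from 117 and 77.3 TPM to 1.83 and 1.77. The reads of HXT6 cannot be separated with confidence from those of its near-identical neighbour HXT7.

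Among 16 fermentation and acetate genes, 7 rose (43.8%, beside 27.9% of all genes) and 2 fell (12.5%, beside 25.1%). PDC5 went from 19.9 and 24.9 TPM to 20610 and 13702, a rise of 9.93 ± 0.67, and PDC6, the third pyruvate decarboxylase, from 1.46 and 4.55 to 101 and 148. ALD6, which makes acetate in the cytosol, fell from 1166 and 1726 TPM to 39.6 and 148, and ACS2, which activates that acetate, from 372 and 331 to 34.6 and 27.2. ADH2, the alcohol dehydrogenase that consumes ethanol, stayed at the bottom of the range, at 0.968 and 4.90 TPM in log phase and 2.46 and 18.4 in saturated culture, and was not called (edgeR adjusted p = 0.117). It was called by DESeq2 (2.17, adjusted p = 0.0355) and in the fit with the replicate number as a block (2.00, edgeR adjusted p = 0.00953), and the change was 3.28 and passed when either log-phase replicate 2 or saturated replicate 1 was left out.

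The gluconeogenic and glyoxylate genes rose from a low base. Of 20, 12 (60.0%, beside 27.9% of all genes) were called higher and 1, the malate dehydrogenase gene MDH2, lower, with a median of 1.31. MLS1, malate synthase, had 1.39 and 5.24 TPM in log phase and 35.5 and 78.0 in saturated culture, a rise of 4.65 ± 0.62. CIT2, the peroxisomal citrate synthase, was the most abundant of those named, at 244 and 320 TPM against 1368 and 1282. FBP1, the fructose-1,6-bisphosphatase of gluconeogenesis, had at most 7 reads in any of the 4 libraries and was not called, though it passed with log-phase replicate 2 or saturated replicate 1 left out. SIP4, a regulator of these genes, rose by 3.89 ± 0.49, and JEN1, the lactate transporter, by 3.09 ± 0.49. Without log-phase replicate 1 the count called higher was 6.

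Among the 26 isozyme pairs compared, the balance of transcripts shifted in many, and in some the other form became the more abundant. In others the major form stayed, with ADH2, PMA2 and HEF3 at 0.0887, 0.128 and 2.21% of their pairs in saturated culture. Protein and enzyme activity were not measured. In 17 glycolysis genes, 4 rose (23.5%) and 3 fell (17.6%), both under the shares of all genes, and these 7 (TDH1, ENO1, HXK1 and GLK1 against TDH3, ENO2 and HXK2) are alternative forms of the same 3 steps. TDH1, a minor glyceraldehyde-3-phosphate dehydrogenase in growing cells, went from 60.6 and 586 TPM to 13612 and 19370, while TDH3 went from 12778 and 15603 to 4016 and 5056. TDH1 thereby supplied 2.23% of the summed TPM of this pair in log phase and 78.4% in saturated culture. ENO1 went from 6.04 to 89.1% of the enolase pair, with a rise of 5.08 ± 0.66 against a fall of −1.92 ± 0.45 in ENO2. HXK1 went from 13.8 to 64.3% of the hexokinase pair with HXK2. The fall of TDH3 did not pass when log-phase replicate 1 or 2 was left out (edgeR adjusted p = 0.134 and 0.163), nor did that of HXK2 (edgeR adjusted p = 0.291 and 0.0814). The rise of GLK1, glucokinase, did not pass without replicate 1 of log phase (edgeR adjusted p = 0.0987). PYK2, the minor pyruvate kinase, was called higher in the blocked fit (0.97, edgeR adjusted p = 0.0112) but not otherwise with all 4 libraries, and its mean share stayed under 1% of its pair with CDC19 in both conditions.

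**Figure D3:**
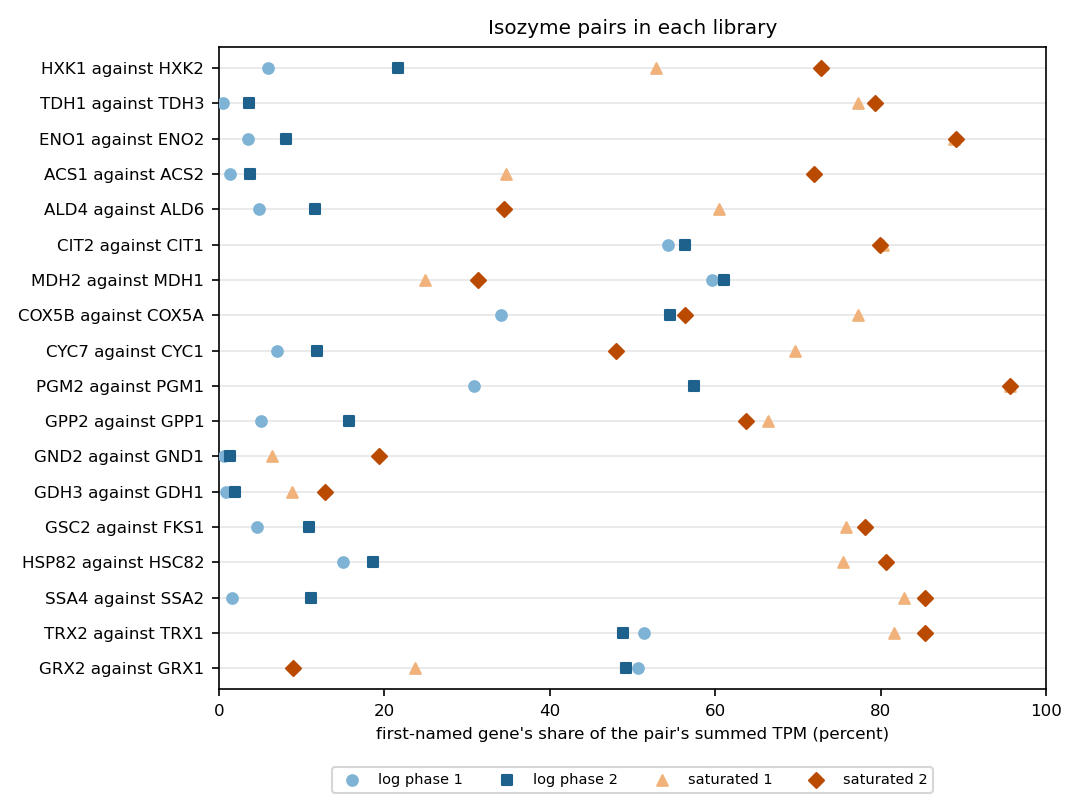
Share of the first-named gene in the summed TPM of each isozyme pair, in percent, for 18 pairs in the 4 libraries. Each symbol is a library. For TDH1, ENO1, GSC2, HSP82 and SSA4 both log-phase libraries lie under 20% and both saturated ones above 75%, whereas MDH2 and GRX2 moved towards lower shares.

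The exchange extended beyond carbon. CYC7, the minor cytochrome c, went from 9.68 to 57.6% of its pair with CYC1, and ACS1 from 2.48 to 58.7% of the acetyl-CoA synthetase pair. The saturated libraries differed in both, with ACS1 at 34.7 and 71.9% and CYC7 at 69.5 and 48.1%, so that which form was the larger depended on the library. GPP2, a glycerol phosphatase, went from 10.3 to 65.2%, while its partner GPP1 was not called. GSC2, the alternative glucan synthase subunit, went from 28.6 and 70.9 TPM to 288 and 643, and from 7.83 to 77.4% of its pair with FKS1. HSP82 and SSA4, the inducible chaperones, went from 16.6 to 78.5% and from 6.14 to 84.3% of their pairs with HSC82 and SSA2, which both fell. In the thioredoxin pair TRX2 went from 50.1 to 83.6% through a fall of TRX1 by −1.66 ± 0.28, with TRX2 itself not called (0.66 ± 0.28), although the fit with the replicate number as a block called it higher (0.68, edgeR adjusted p = 0.0341). The malate dehydrogenase pair moved towards its mitochondrial member, with MDH2 going from 60.4 to 28.7%, and the glutaredoxin pair moved towards GRX1, which rose by 2.82 ± 0.35. In several of these genes log-phase replicate 2 already lay above log-phase replicate 1, as TDH1 shows. How the authors counted reads that fit both members of such similar pairs is not given in the sources used here.

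The respiratory chain rose, whereas the citric acid cycle was divided and protein import into mitochondria fell. Of 24 electron transport genes 16 rose (66.7%) and 2, CYC1 and the external NADH dehydrogenase gene NDE1, fell, with a median of 1.56. CYC1 did not pass with saturated replicate 1 left out (edgeR adjusted p = 0.0515), nor NDE1 with log-phase replicate 1 left out (edgeR adjusted p = 0.0513). QCR8, a subunit of the cytochrome bc1 complex, went from 190 and 175 TPM to 1308 and 2295. COX7 and COX13, small subunits of cytochrome c oxidase, went from 97.3 and 81.3 to 756 and 646 and from 163 and 193 to 1109 and 1428. The changes in QCR8, COX7 and COX13 were 3.61 ± 0.35, 3.29 ± 0.30 and 3.16 ± 0.31. Of 17 ATP synthase genes 5 rose (29.4%, close to the 27.9% of all genes), among them STF1 and INH1, inhibitors of the enzyme, at 2.38 ± 0.35 and 1.92 ± 0.27.

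In the citric acid cycle list 6 of 18 genes were higher (33.3%) and 4 lower (22.2%), shares near those of all genes. ACO1, aconitase, fell from 810 and 1010 TPM to 81.1 and 105, a change of −2.97 ± 0.37. The succinate dehydrogenase subunits SDH4 and SDH2 rose by 1.47 ± 0.33 and 1.28 ± 0.30, but neither passed once log-phase replicate 1 was left out, and 0 of the 18 were then called higher. Of 32 protein import genes none rose, 20 were not called and 12 fell (37.5%, beside 25.1% of all genes). Among those that fell were TOM70 and TOM40 of the outer membrane entry gate, by −1.92 ± 0.28 and −1.56 ± 0.27. The count of import genes lower was 10 with DESeq2 and 17 with plain library totals. The 68 mitochondrial ribosome genes were mostly not called, with 7 higher and 3 lower, counts that differed between leave-one-out fits from 2 to 6 and from 0 to 12. The shares of the mitochondrial ribosome list, 10.3% higher and 4.41% lower, lie under those of all genes (27.9 and 25.1%). This stood against the cytoplasmic ribosomal protein genes, of which 135 of 137 fell, from 33.7 and 29.3% of TPM to 3.84 and 2.57%.

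Peroxisomes, storage sugars and glycerol followed the direction of the respiratory chain. Of 40 peroxisome and fatty acid oxidation genes 18 rose (45.0%, beside 27.9% of all genes) and 2 fell (5.00%). POX1, the fatty acyl-CoA oxidase, went from 1.29 and 2.05 TPM to 4.84 and 13.3, and the fatty acid transporter gene PXA1 from 3.16 and 6.48 to 15.6 and 19.5. Leaving out log-phase replicate 1 left 9 of the list called higher. Of 25 storage sugar genes 13 rose (52.0%) and 1, PGM1, fell. The 4 largest rises (GAC1, PCL10, GIP2 and PIG2) were all in regulators of glycogen synthesis. GAC1, a regulatory subunit of the Glc7 phosphatase that activates glycogen synthase, went from 1.46 and 3.01 TPM to 105 and 155, a rise of 6.33 ± 0.44. PCL10, a cyclin of the kinase Pho85, went from 18.1 and 22.1 to 608 and 383. GSY2, the main glycogen synthase, was at 46.4 and 116 TPM in log phase and 129 and 120 in saturated culture and was not called, and neither was the trehalose synthase gene TPS1. Both passed in the fit with the replicate number as a block, GSY2 at 1.14 (edgeR adjusted p = 0.00378) and TPS1 at 0.68 (edgeR adjusted p = 0.0328). GSY2 also passed with no low-count filter, in the 4 libraries alone, and with log-phase replicate 2 (1.66) or saturated replicate 2 (0.86) left out. In the glycerol list 6 of 12 rose, led by DAK2 and by GCY1, a glycerol dehydrogenase, which went from 22.1 and 35.5 TPM to 575 and 592.

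Genes that release and scavenge nitrogen rose widely. Of 33 genes under nitrogen catabolite control 21 rose (63.6%, beside 27.9% of all genes) and 2, ASP1 and CAR2, fell, with a median of 1.12. After PUT1 came DAL80, a repressor of the pathway, with 1 and 0 reads in log phase and 47 and 16 in saturated culture. UGA4, the transporter of gamma-aminobutyrate, went from 1.10 and 2.09 TPM to 64.3 and 82.4. MEP2, the high-affinity ammonium transporter and sensor, went from 12.8 and 17.1 to 306 and 762, a rise of 5.48 ± 0.51. GAP1, the general amino acid permease, changed less, from 34.0 and 46.2 TPM to 44.7 and 97.3 (1.12 ± 0.39), and did not pass with log-phase replicate 1, log-phase replicate 2 or saturated replicate 2 left out, the change then being 0.94, 1.26 and 0.33. Amino acid permeases as a list split into 8 higher (38.1%) and 4 lower (19.0%), with AGP1, a broad-range permease, rising by 3.74 ± 0.39 and GNP1, a glutamine permease, falling by −4.06 ± 0.31. Their counts were 5 higher without log-phase replicate 1 or 2, and 7 lower without saturated replicate 2.

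Autophagy genes were among the lists with the highest share called higher. Of 34 tested, 25 (73.5%) rose, against 27.9% of all genes, and 1, ATG27, fell, with a median of 1.16. ATG27 did not pass with either log-phase library left out (edgeR adjusted p = 0.0530 and 0.0762). ATG41 went from 59.2 and 47.4 TPM to 4716 and 2893, a rise of 6.48 ± 0.46. ATG8, the ubiquitin-like protein that is joined to the autophagosome membrane, went from 27.4 and 23.2 to 411 and 530, and ATG39, the receptor for nuclear autophagy, from 4.36 and 4.29 to 80.3 and 75.5. ATG1, the kinase that starts the process, rose by 3.13 ± 0.40, and ATG32, the receptor for mitochondria, by 2.43 ± 0.27. In these 5 genes, named from those called higher, every saturated value exceeded every log-phase value. With log-phase replicate 1 left out, 12 of the list were called higher.

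The compartment that receives this material was not uniform. Of 15 vacuolar hydrolase genes 7 rose (46.7%, beside 27.9% of all genes) and 1, APE3, fell. PRB1, vacuolar proteinase B, went from 83.5 and 177 TPM to 1173 and 2701, a rise of 4.21 ± 0.56. The proton pump that acidifies the vacuole went the other way, with a median of −1.16. Of its 20 genes 13 were lower (65.0%, beside 25.1% of all genes) and none higher. VMA3, a subunit of its membrane ring, went from 1064 and 1242 TPM to 211 and 197, and VMA2, a subunit of the catalytic head, from 766 and 840 to 134 and 168. Of 34 proteasome genes 5 fell (14.7%, under the 25.1% of all genes) and 28 were not called. The only rise was that of RPN4, the transcription factor for the proteasome genes, at 2.37 ± 0.32. The count of proteasome genes that fell was 2 with log-phase replicate 1 left out and 13 with saturated replicate 2 left out. Ubiquitin itself shifted in source. UBI4, the gene for the stress-induced polyubiquitin, rose from 92.0 and 192 TPM to 749 and 943, while RPS31 and RPL40A, which encode ubiquitin fused to ribosomal proteins, fell by −3.75 ± 0.50 and −2.39 ± 0.33.

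Biosynthesis divided by pathway. The sulfur and methionine list rose, with 20 of 36 genes higher (55.6%, beside 27.9% of all genes) and 6 lower (16.7%, beside 25.1%). STR3, which passes sulfur from cysteine towards methionine, went from 21.8 and 31.2 TPM to 1043 and 571, a rise of 5.29 ± 0.47. SUL2, a sulfate transporter, went from 33.4 and 18.4 to 683 and 477, and MET16, which reduces activated sulfate, from 32.1 and 20.2 to 648 and 349. The other end of the methyl cycle fell, with SAH1, which clears S-adenosylhomocysteine, going from 1781 and 1781 TPM to 99.1 and 136. The strain lacks MET15, which makes homocysteine from sulfide, in both conditions. Of 66 amino acid synthesis genes 28 rose (42.4%, beside 27.9% of all genes) and 9 fell (13.6%, beside 25.1%). ARG3 and CPA1 of arginine synthesis went from 38.3 and 26.7 to 588 and 283 and from 127 and 111 to 1396 and 584, and PRO3, the last step of proline synthesis, fell from 365 and 444 to 47.3 and 68.1. The count lower was 2 with log-phase replicate 1 left out and 22 with saturated replicate 1 left out.

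In nucleotide synthesis 12 of 36 genes rose (33.3%, beside 27.9% of all genes) and 13 fell (36.1%, beside 25.1%). Those that fell included the guanine branch, with IMD2, IMD3 and IMD4, the IMP dehydrogenases, at −5.48 ± 0.58, −3.66 ± 0.37 and −3.97 ± 0.30, and GUA1, the next enzyme, at −3.52 ± 0.31. Reads of the similar IMD genes may not be fully separable. URA10, an orotate phosphoribosyltransferase, ran against them, from 10.4 and 16.5 TPM to 414 and 222.

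Of 46 genes of iron, copper and zinc handling 25 rose (54.3%, beside 27.9% of all genes) and 4 fell (8.70%, beside 25.1%). FIT3, a wall protein that retains iron carriers, went from 31.3 and 39.2 TPM to 133 and 823, with the saturated libraries far apart. ISU1, the scaffold for iron-sulfur clusters, went from 145 and 150 to 1705 and 1116. The iron permease gene FTR1 and the siderophore transporter gene SIT1 were among the 4 that fell. The list had 16 higher with log-phase replicate 1 left out. Among 24 phosphate genes 5 rose (20.8%) and 7 fell (29.2%), shares near those of all genes. PHM8, a nucleotide phosphatase, went from 18.7 and 34.0 TPM to 2432 and 1834, while the phosphate transporters PHO84 and PHO90 fell by −2.34 ± 0.33 and −3.03 ± 0.31. Without log-phase replicate 2 the phosphate list had 3 lower, and without log-phase replicate 1 it had 3 higher.

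The machinery of division fell. Of 24 cyclin genes and their partners 11 fell (45.8%, beside 25.1% of all genes) and 4 rose (16.7%). CLB6, an S-phase cyclin, had 149 and 39 reads in log phase and 3 and 0 in saturated culture, and CLN2, a G1 cyclin, went from 89.0 and 75.8 TPM to 11.5 and 21.1. PCL5, a Pho85 cyclin involved in Gcn4 turnover, rose from 190 and 106 TPM to 1500 and 655. Of 57 replication genes 32 fell (56.1%) and 2 rose, TAH11 and DPB11. TAH11, which helps load the replicative helicase, rose by 1.64 ± 0.26, whereas DPB11 (0.98 ± 0.34) did not pass with log-phase replicate 1, log-phase replicate 2 or saturated replicate 1 left out (edgeR adjusted p = 0.0808, 0.213 and 0.625). RNR1, the large subunit of ribonucleotide reductase, went from 337 and 298 TPM to 14.8 and 15.1, a change of −4.07 ± 0.33, and POL30, the sliding clamp, from 165 and 139 to 15.3 and 6.19. The count of replication genes that fell was 18 without replicate 1 of log phase. Without saturated replicate 2, 17 of the cyclin list fell. Of 57 genes of mitosis and cohesion 28 fell (49.1%) and 5 rose, with MCD1, a cohesin subunit, at −3.31 ± 0.33 and TUB2, beta-tubulin, at −2.92 ± 0.44. Cytokinesis was the most one-sided of these lists, with 25 of 35 genes lower against 25.1% of all genes, and CHS1, a chitin synthase of wall repair, the only rise (2.06 ± 0.35).

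Histone genes were unequal within their own pairs. Of 11 none rose and 7 fell (63.6%, beside 25.1% of all genes). HTA2 went from 812 and 818 TPM to 51.1 and 53.0 (−3.63 ± 0.29), whereas HTA1, which encodes the same class of histone H2A, stood at 1068 and 1038 in log phase and 654 and 615 in saturated culture and was not called. HHF1 fell by −1.33 ± 0.26. The replicates of HTA2 agree to within a few TPM in each condition.

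Transcripts of many sterol and lipid synthesis genes fell, and cell wall genes went both ways. Of 42 cell wall genes 16 fell (38.1%) and 11 rose (26.2%, close to all genes). Against PIR3 and SPI1, SIM1 and CIS3, wall proteins of growing cells, went from 401 and 560 TPM to 28.5 and 52.4 and from 813 and 869 to 56.4 and 148. Sterol synthesis had 20 of 31 genes lower (64.5%, beside 25.1% of all genes) and 2 higher, ARE2 and ECM22, with a median of −1.39. Neither of the rises passed with log-phase replicate 1 left out (edgeR adjusted p = 0.0909 for ARE2 and 0.0578 for ECM22), and ECM22 also did not pass with log-phase replicate 2 or saturated replicate 1 left out (0.252 and 0.0911). ERG6, which methylates the sterol side chain, went from 359 and 338 TPM to 17.9 and 26.7 (−3.69 ± 0.32), and ERG13, of the early mevalonate pathway, fell by −3.59 ± 0.30. Of 37 fatty acid and phospholipid genes 17 fell (45.9%), including FAS1, a subunit of fatty acid synthase, at −3.31 ± 0.41 and ACC1, acetyl-CoA carboxylase, at −2.89 ± 0.40. Of the 5 that rose, INO1, inositol phosphate synthase, changed by 2.47 ± 0.30 and DGA1, which makes triacylglycerol, by 2.11 ± 0.31. Without log-phase replicate 2, 3 of these lipid genes rose.

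Genes of the secretory route, of nuclear transport and of tRNA charging mostly fell. The share lower was 70.7% for endoplasmic reticulum entry and glycosylation and 52.5% for coats and exocyst. It was 62.5% for nuclear pore and transport genes, beside 25.1% of all genes. Of 58 genes for entry into the endoplasmic reticulum and glycosylation 41 fell and 1, the disulfide oxidase gene ERO1, rose. SEC53, phosphomannomutase, went from 663 and 675 TPM to 95.7 and 59.1, and SEC63, of the translocon, from 177 and 144 to 21.1 and 22.7. Of 40 coat and exocyst genes 21 fell, with COP1, a subunit of the COPI coat, at −2.00 ± 0.31. Of 48 nuclear pore and transport genes 30 fell and 1, ASM4, rose (not past the threshold with log-phase replicate 2 left out, edgeR adjusted p = 0.0562), with KAP123, an importer of ribosomal proteins, going from 347 and 290 TPM to 32.7 and 40.3. Leaving out log-phase replicate 1 gave 12 for the coats and 17 for the pores. All 19 tRNA synthetase genes had a negative change, and 18 (94.7%) fell, with a median of −1.73, beside 25.1% of all genes. GLN4, glutaminyl-tRNA synthetase, went from 275 and 236 TPM to 17.7 and 27.3.

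Regulators of nutrient and stress responses rose in number, with 30 of 59 higher (50.8%, beside 27.9% of all genes) and 3, RAS1, SNF4 and RAS2, lower. SNF4 and RAS2 did not pass with log-phase replicate 1 left out (edgeR adjusted p = 0.0695 and 0.0765), nor RAS2 with log-phase replicate 2 or saturated replicate 1 left out (0.224 and 0.0569). NRG1, a repressor of glucose-repressed genes, went from 30.0 and 22.8 TPM to 958 and 569, a rise of 5.17 ± 0.41. MTH1, which represses hexose transporter genes when glucose is low, went from 8.01 and 11.8 to 241 and 289. CRF1, a corepressor of ribosomal protein genes, rose by 4.60 ± 0.35, and DOT6, a repressor of ribosome assembly genes, by 3.11 ± 0.36. HAP4, the activator of respiratory genes, rose by 2.82 ± 0.33 and MSN4, a general stress activator, by 3.01 ± 0.36. RAS1, which signals glucose to protein kinase A, fell from 64.9 and 51.3 TPM to 4.68 and 5.17. TOR1 and SNF1, kinases that sense nitrogen and carbon, were not called, at −0.06 ± 0.29 and 0.50 ± 0.30.

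Stationary-phase, chaperone and other stress-related lists also held members that ran against their list. Of 22 genes for hydrophilins and stationary-phase proteins 18 rose (81.8%, beside 27.9% of all genes) and 1, NOP6, fell, from 95.5 and 71.9 TPM to 12.3 and 15.6. MOH1, a gene needed in stationary phase, went from 5.21 and 8.61 TPM to 480 and 471 (6.57 ± 0.38). The 37 genes of oxidative stress defence split into 16 higher (43.2%) and 6 lower (16.2%). GPX1, a glutathione peroxidase, rose by 3.90 ± 0.40, while TSA1, the main cytosolic peroxiredoxin, fell from 2336 and 2395 TPM to 610 and 825. Among 51 chaperone genes 23 rose (45.1%) and 19 fell (37.3%, beside 25.1% of all genes). Those that fell were led by SSB1 and SSB2, the similar chaperones that bind nascent chains on ribosomes, at −3.88 ± 0.39 and −3.27 ± 0.34. RIO1, a kinase of small-subunit maturation, was the only gene of 117 in ribosome assembly that rose (1.49 ± 0.29), with 100 lower (85.5%). HEF3, an elongation factor form that is minor in growing cells, was the only one of 44 translation factors that rose (2.01 ± 0.32), with 34 lower (77.3%). Of 67 genes for RNA polymerase II and its factors 44 were not called, 14 rose (20.9%) and 9 fell (13.4%). Both shares lie under those of all genes (27.9 and 25.1%). NUT2, a Mediator subunit, went from 28.4 and 30.3 TPM to 195 and 223. RPO26, a subunit shared by the nuclear polymerases, went from 329 and 274 to 47.8 and 59.6. The polymerase counts were 4 higher with log-phase replicate 2 left out, and 24 lower with saturated replicate 2 left out, and the 6 oxidative defence genes that fell became 2 without log-phase replicate 1.

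Mating genes mostly fell, and some meiotic genes rose from very low levels. Of 27 mating type a and haploid genes 15 fell (55.6%, beside 25.1% of all genes) and 4 rose. STE2 went from 278 and 464 TPM to 79.7 and 40.8, and BAR1, the protease that degrades alpha-factor, from 131 and 251 to 9.65 and 13.1. RME1, a repressor of meiosis, was among the 4 that rose, from 70.2 and 111 to 366 and 223. Of 59 meiosis and sporulation genes 48 passed the filter on low counts, and 18 of those were higher (37.5%, beside 27.9% of all genes). A gene near silent in log phase can pass that filter through a condition where it is high, which can raise this share. Most of the meiotic genes stayed very low. MND1, a meiotic recombination gene, was the exception in level, at 1.76 and 3.11 TPM in log phase and 92.6 and 141 in saturated culture (6.05 ± 0.45). IME1 and NDT80, the inducers of meiosis, were not called, at 0.67 ± 0.42 and 1.15 ± 0.63. When either log-phase library was left out, 9 meiotic genes were called higher. For the mating list the higher count was then 2 and 1.

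Within 25 kb of the outermost annotated gene lay 336 genes, of which 213 were tested, and 82 of these rose (38.5%, beside 27.9% of all genes) and 30 fell (14.1%, beside 25.1%), with a median of 0.80. The filter kept genes with enough reads in any of the 7 libraries, so these counts describe genes with reads in some condition. A gene near silent in log phase could pass only through a library where it was high, which can raise the share called higher. Of 17 COS and flocculin genes, 15 were tested and 9 rose, with COS8 going from 10.1 and 38.5 TPM to 65.6 and 59.6, a change that did not pass with log-phase replicate 1 left out (edgeR adjusted p = 0.0874). Of 24 PAU genes 4 were tested, and all 4 were called higher, PAU17 at 646 and 906 TPM in log phase and 999 and 3211 in saturated culture (0.53 and not called with saturated replicate 2 left out). Members of both families share near-identical sequence, so reads may be split among them. A gene of low level can pass the filter through the condition where it is high, so 4 of 4 does not describe the PAU family. The same limit holds for the COS and flocculin genes, of which 60.0% of those tested rose. Dropping log-phase replicate 1 gave 49 for the chromosome ends, 3 for the COS and flocculin genes and 1 for the PAU genes.

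Most genes of the splicing machinery were not called, while the helicase that recycles it fell. Of 67 spliceosome genes 45 were not called, 14 rose (20.9%) and 8 fell (11.9%), under the shares of all genes. PRP43, the helicase that takes apart the complex left on an excised intron and that also serves in ribosome assembly, went from 103 and 87.7 TPM to 5.24 and 6.26, a fall of −3.75 ± 0.30 (edgeR adjusted p = 4.61e-05). Its partners in that step, SPP382 (also known as NTR1) and NTR2, were not called, at −0.48 ± 0.33 and −0.09 ± 0.38, but SPP382 passed with saturated replicate 2 left out (−0.78) and NTR2 with saturated replicate 1 left out (−1.15). DBR1, the enzyme that opens the lariat, was not called, at 0.51 ± 0.28 (edgeR adjusted p = 0.160). Of 57 debranching and decay genes 15 fell (26.3%, close to the 25.1% of all genes) and 5 rose (8.77%). XRN1, the cytoplasmic 5′ exonuclease, fell from 256 and 212 TPM to 84.9 and 78.6 (edgeR adjusted p = 0.0126, and 0.137 with log-phase replicate 1 left out), while RAT1, its nuclear counterpart, was not called at 0.04 ± 0.27. The spliceosome counts ran from 5 to 10 higher and from 2 to 15 lower when any library was left out, and the decay genes that fell ran from 7 (log-phase replicate 1 left out) to 25 (saturated replicate 2 left out).

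Introns gained reads against their hosts almost throughout. They held 3.44 and 3.51% of TPM in log phase and 8.05 and 7.42% in saturated culture. Introns in hosts whose span holds a small nucleolar RNA gene weigh heavily in this share, which was not computed without them. In log-phase replicate 1 the introns of EFB1, NOG2 and ASC1 had 14275, 8196 and 12483 of 86996 intron reads. In saturated replicate 1 they had 20786, 20219 and 19951 of 139090. The median intron had 3.13 and 3.15 reads per 100 reads of its host gene in log phase and 14.9 and 15.9 in saturated culture. Of 270 introns tested, 216 (80.0%) rose relative to their host and 3 (1.11%) fell, with a median log2 change of 2.22 (edgeR interaction of intron and gene reads within each library). Measured against the library rather than the host, 126 (46.7%) rose in level and 33 (12.2%) fell, with a median of 1.19. An intron near silent in log phase could pass the minimum of 10 reads in 1 library only through a library where it was high. EFM5 intron 2, at 1 and 0 reads in log phase and 136 and 24 in saturated culture, is such a case. This can raise the share that rose, in level and relative to the host. The 33 that fell in level became 9 when log-phase replicate 1 was left out, 20 for log-phase replicate 2 and 55 for saturated replicate 1.

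Splitting the introns by what their host did separated the measures. For the 138 introns whose host fell, 136 rose relative to it, but 29 rose and 32 fell in level, with a median level change of −0.01. For the 78 whose host was not called, 52 rose relative to it and 50 rose in level. For the 53 whose host rose, 47 rose in level and 28 rose faster than the host. Here too an intron could pass the minimum of reads only where it was high, which can raise these counts. Ribosomal protein genes host 104 of the introns, and 103 of these rose relative to the host, RPL16A being the exception at 0.78 ± 0.40. In level, 32 of the 104 fell and 9 rose. Among the 166 introns of other hosts, 113 rose relative to the host and 117 rose in level, with median changes of 2.13 and 2.36.

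**Figure D4:**
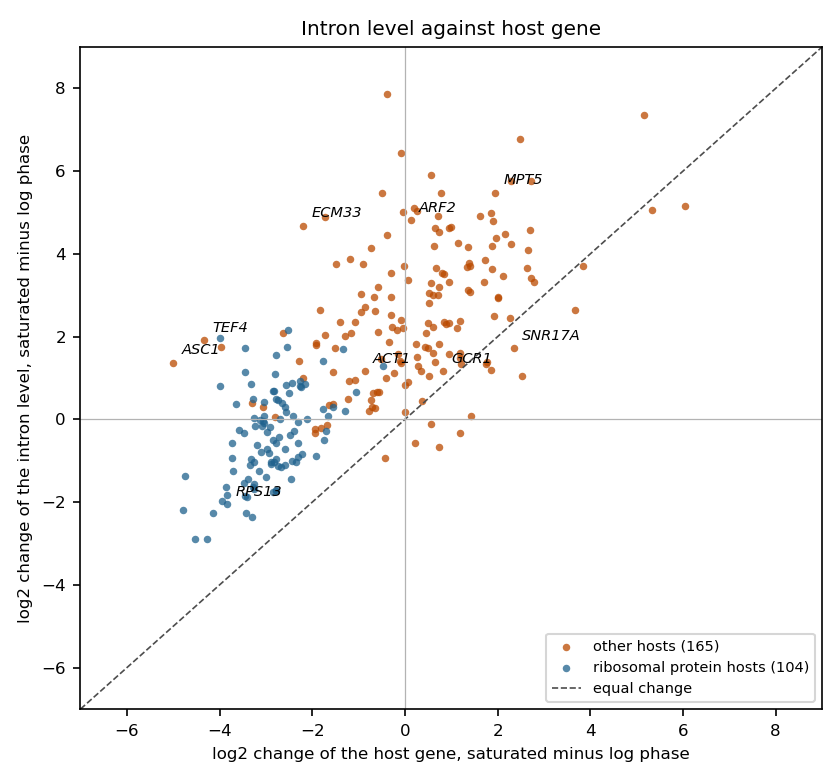
Log2 change of intron level against log2 change of the host gene, saturated minus log phase, for 269 tested introns with a tested host. Blue points have ribosomal protein hosts and orange points other hosts, and the dashed line marks equal change. Most points lie above the line, with the ribosomal protein introns around a level change near 0 and most others above it.

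The intron of ECM33, a glycosylphosphatidylinositol-anchored wall protein, had the largest change relative to its host among the 99 introns with at least 10 reads in each library. It is 330 nt long and had 178 and 66 reads in log phase and 1660 and 944 in saturated culture, while the host had 10122 and 3322 reads and then 859 and 409. That is 1.76 and 1.99 intron reads per 100 host reads in log phase and 193 and 231 in saturated culture. The change was 6.83 ± 0.32 relative to the host and 4.68 ± 0.53 in level, with the host at −2.19 ± 0.42. Per base, the intron was 0.0687 and 0.0777 times as dense as the host in log phase and 7.55 and 9.02 times as dense in saturated culture.

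The next 4 changes belong to introns in genes whose span also holds a small nucleolar RNA gene in the reference annotation: ASC1 with SNR24, TEF4 with SNR38, RPL7A intron 2 with SNR39 and IMD4 with SNR54. The intron of ASC1 had 47.0 and 42.4 reads per 100 host reads in log phase and 4200 and 3194 in saturated culture, a change of 6.38 ± 0.39. Its level rose by 1.37 ± 0.33, and its host, at 26534 and 7730 reads and then 475 and 104, fell by −5.00 ± 0.38. TEF4, which encodes a translation elongation factor subunit, showed the same division, with its intron at 6.28 ± 0.34 relative to the host and 1.92 ± 0.41 in level. Reads of the nucleolar RNA and of the rest of such an intron cannot be told apart here. Without the 11 introns of such hosts, 205 of 259 introns rose relative to their hosts.

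Intron 1 of RPL7A had fewer reads than intron 2 in every library and changed by 4.83 ± 0.35 relative to the host, with a level change of 0.81 ± 0.38 that was not called. RPS6B, RPS23A and SUN4 had falling hosts and introns that rose in level, by 1.72 ± 0.34, 2.15 ± 0.36 and 2.08 ± 0.42. The intron of ARF2, an ADP-ribosylation factor of the Golgi, rose while its host was not called. It had 48 and 19 reads in log phase and 907 and 189 in saturated culture, beside host reads of 1220 and 456 and then 878 and 190. The host change was 0.13 ± 0.28 (−0.18 with plain library totals), and the intron level rose by 4.81 ± 0.40.

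Some introns rose together with their hosts and yet faster. MPT5, a PUF-family RNA-binding protein, had intron reads of 77 and 14 in log phase and 1270 and 463 in saturated culture. Its host rose by 1.94 ± 0.27 and its intron level by 5.48 ± 0.47, the largest among the 99. GLC7, the catalytic subunit of protein phosphatase 1, had an intron level change of 4.63 ± 0.38 with a host change of 0.95 ± 0.32. That host change did not pass with log-phase replicate 1, log-phase replicate 2 or saturated replicate 1 left out (edgeR adjusted p = 0.117, 0.253 and 0.273). UBC4, a ubiquitin-conjugating enzyme with an intron of 95 nt, had 4.79 ± 0.43 and 1.90 ± 0.36, and HNT1, a nucleotide hydrolase with an intron of 111 nt, 4.98 ± 0.42 and 1.85 ± 0.30. In all 4, named for their large changes, the intron-to-host ratio of each saturated library exceeded that of each log-phase library.

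**Figure D5:**
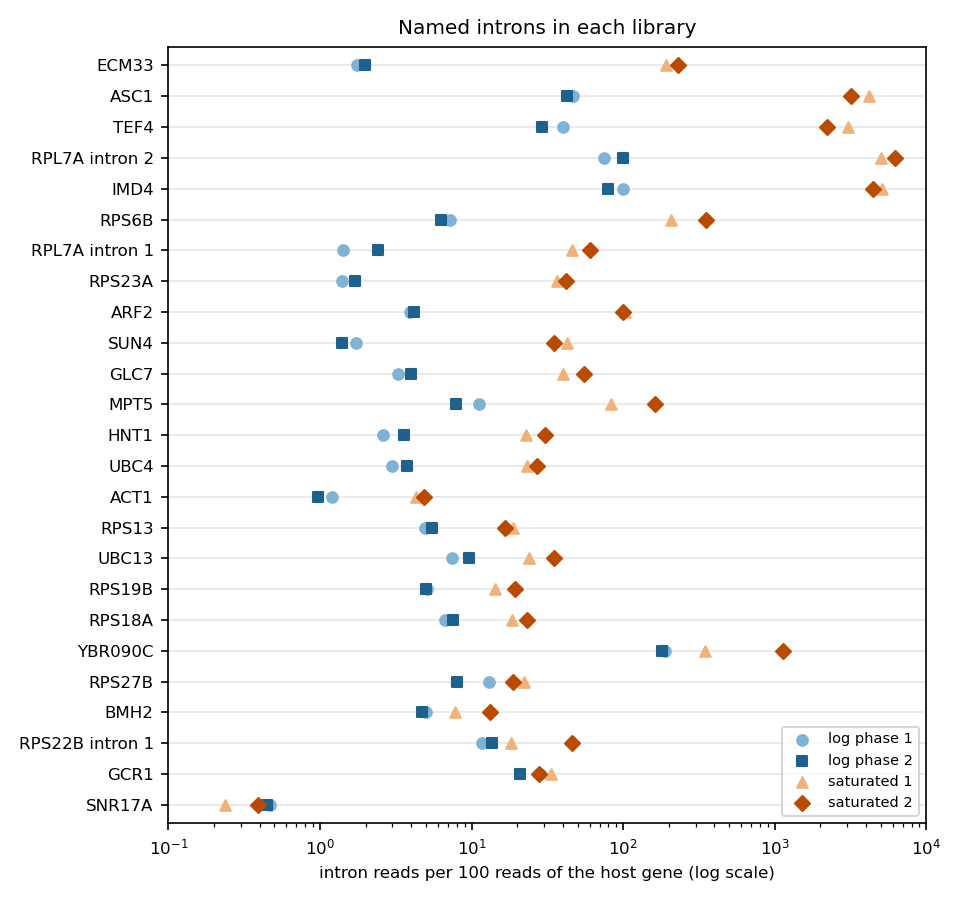
Intron reads per 100 reads of the host gene for the 25 named introns in each library, on a log axis, ordered by the change relative to the host. Each symbol is a library. The conditions are separated in nearly every intron and meet at the bottom, where GCR1 and SNR17A sit.

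Not every intron rose against its host. In GCR1, which encodes the activator of glycolytic genes, the 751-nt intron had 28.4 and 21.0 reads per 100 host reads in log phase and 33.6 and 27.7 in saturated culture, a change of 0.32 ± 0.32 that was not called. The intron of SNR17A had 0.471 and 0.449 and then 0.236 and 0.391 reads per 100 host reads (−0.65 ± 0.58, not called). It was called lower relative to the host with the replicate number as a block (−0.67, edgeR adjusted p = 0.0248) and without saturated replicate 2 (−0.97, edgeR adjusted p = 0.0404), although its level rose by 1.72 ± 0.34 with that of the host. The introns called lower relative to the host were those of SNR17B (−1.57 ± 0.47), MRK1 (−1.53 ± 0.59) and YLR202C (−1.66 ± 0.66), and none was with log-phase replicate 1 left out. RPS13 had the largest fall in level, from 709 and 184 reads to 100 and 18, a change of −2.05 ± 0.36, and still rose by 1.79 ± 0.33 relative to its host. The ACT1 intron, of the actin gene, went from 1.21 and 0.977 to 4.28 and 4.83 reads per 100 host reads, a change of 2.02 ± 0.35. ACT1 itself was not called at −0.87 ± 0.34 (edgeR adjusted p = 0.0579), but was called lower with the replicate number as a block (−0.84, edgeR adjusted p = 0.0253), with plain library totals (−1.17), by DESeq2 (−0.88) and with either saturated library left out (−0.88 and −1.22).

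Few introns were denser in reads than their own host gene in log phase, and more were in saturated culture. Per base, 20 of 300 exceeded the host in each log-phase library, and 80 and 81 did in the saturated libraries. In both log-phase libraries this held for 15, and in both saturated libraries for 55. The 300 include introns with very few reads. Among the 99 with at least 10 reads in each of the 4 libraries, 9 exceeded the host in each log-phase library, and 23 and 22 in the saturated ones. In both libraries of a condition this held for 9 and 19 of them. Over all 300, the median intron had 0.0857 and 0.0777 times the density of its host in log phase and 0.538 and 0.436 times in saturated culture. Reads within an intron can come from excised introns or from unspliced transcripts, which these tables do not separate.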

How the data were processed

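Per the labels' protocols, cells were harvested by vacuum filtration, RNA was extracted with TRI Reagent, ribosomal RNA was removed with Ribo-Zero, and alkaline fragments of 27 to 40 nt were sequenced. Per the submitters' processing notes, cutadapt 1.8, STAR 2.4 and the R64 (sacCer3) genome were used. The read counts per gene and per intron and the TPM values were deposited by the authors, per the file headers. The counting tool, annotation, strand setting and treatment of reads with several alignments are each not given in the sources used here.

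Read counts of 7 libraries in 5 groups, 2 replicates in each group used here, were fitted in 1 model with edgeR 4.0.16 (R 4.3.3; TMM scaling, filterByExpr, quasi-likelihood F test, Benjamini-Hochberg threshold 0.05), leaving 5827 of 6665 genes. The error printed after ± is the standard error of the log2 change. Introns with at least 10 reads in 1 library were tested against their host's reads with an interaction of kind and group, and in level with the gene library sizes. TPM was used to describe levels and shares, never in a test. Isozyme shares use the mean TPM of each group. DESeq2 1.42.0, limma 3.58.1 and other settings were tried. Symbols came from the R64 reference table, where 5989 genes matched by locus tag. The steps were tested on simulated data.

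The members and lists were chosen with earlier results of these data known. Genes named are the 12 largest rises and falls with a mean of at least 10 CPM outside the chaperone, thiamine, ribosome assembly, translation factor and ribosomal protein genes, up to 6 of each list by size of change, all isozyme pairs, strain markers and the most abundant genes. The 12 rises and 12 falls also had to be called, with both saturated libraries beyond both log-phase ones in CPM. Introns named are those with the largest and smallest changes among those with at least 10 reads in each of the 4 libraries, with ECM33 and ACT1. Other genes and introns, among them the exceptions within lists and genes named as not called, were chosen after their values were seen. Counts carry sampling error as well as replicate spread, and saturated replicate 2 was the shallowest of the 4 libraries.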

Additional observations from a re-analysis of the deposited data

How the results depend on the processing

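DESeq2 size factors, plain library totals, no filter on low counts, DESeq2's own test and a fit of the 4 libraries alone gave 1649, 1225, 1675, 1360 and 1625 genes higher and 1518, 1833, 1482, 1307 and 1478 lower. Leaving out each library in turn gave 998 to 1615 higher and 992 to 1974 lower, where a lone replicate is assumed to vary like the other groups. Under the same leave-one-out fits 163 to 204 introns rose relative to the host and 0 to 4 fell, 84 to 131 rose in level and 9 to 55 fell. With at least 50 reads 62 introns rose in level, and the median change relative to the host stayed between 2.15 and 2.29 in every alternative run. The labels give same-numbered libraries only a shared number. Their deviations correlated at 0.18 over 2 pairs, which does not settle whether they share a batch or day. The replicate block gave 1679 genes higher and 1551 lower, 1550 and 1452 of them shared with the unblocked fit, and 5 introns lower relative to the host. The genes whose values changed sign were not called with all libraries in. With plain totals ARF2 was at −0.18, RAT1 at −0.26 and PMA2 at −0.27, and PMA2 was at −0.06 with the replicate block. With single libraries left out, the ranges were −2.61 to 4.64 for URA3, −0.12 to 0.74 for COX5A, −0.87 to 0.05 for GDH1, −0.29 to 0.07 for GPP1, −1.37 to 0.42 for ALD4, −1.05 to 0.68 for PMA2, −0.33 to 0.51 for GRX2, −1.38 to 1.28 for ANB1, −0.04 to 0.37 for FBA1, −0.08 to 0.24 for ARF2, −0.07 to 1.65 for NDT80, −1.15 to 0.06 for NTR2, −0.32 to 0.19 for RAT1, −0.02 to 0.56 for SNF1 and −0.26 to 0.02 for TOR1. Plain totals lower every gene by about the shift of the overall median, so lists with medians near 0 have no set direction. With plain totals 3 citric acid cycle, 3 mitochondrial ribosome, 3 mitosis, 5 spliceosome, 7 polymerase, 5 COS and flocculin, 2 PAU and 11 meiotic genes rose, and 7 mitochondrial ribosome, 13 spliceosome, 15 polymerase, 23 decay and 11 proteasome genes fell. DESeq2 gave 4 mitochondrial ribosome, 8 spliceosome, 7 polymerase, 5 COS and flocculin, 2 PAU and 11 meiotic genes higher, and 5 spliceosome genes lower. The block gave 5 mitochondrial ribosome genes lower and 2 PAU genes higher. Over 415 named genes, 121 values under an alternative lost their call, 58 gained one, 23 changed sign and 3906 kept direction and call. The causes were not tested. The shallow saturated replicate 2, at 1019287 gene reads, limits what can be said of genes with few reads.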
